A study of Homo sapiens with 44 samples.

Results

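The interleukin 1 (IL-1) family ligand genes IL1A, IL1B, IL18, IL33 and IL36G, the receptor antagonist gene IL1RN and the kinase gene IRAK2 were followed across all treatments and durations of a cytokine stimulation experiment. These 7 genes were found by symbol among the 33538 gene identifiers of the deposited tables, and all 7 had a row. IL1A, IL1B, IL18 and IRAK2, that is 4 of the 7, passed the filter on low counts and were among the 14469 genes tested. IL1RN, IL33 and IL36G did not pass it and are described by their counts. IL1A, IL1B and IRAK2 rose with each of the 3 doses of TNFα alone, with TNFα 10 ng/ml plus IFNγ, and with the most concentrated T-cell supernatant, IL18 fell with the combination of cytokines and with that supernatant, and IL33 was close to undetected.

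Messenger RNA was sequenced from OVCAR5, a human cell line labelled as ovarian carcinoma, in a derivative that carries a reporter of IFNγ sensing and is CFP+. All groups share this reporter line, culture in IMDM medium with fetal calf serum, and continuous exposure for 2, 6, 12 or 24 h. The treatments were IFNγ at 0.01, 1 or 100 ng/ml, TNFα at 0.1, 1 or 10 ng/ml, IFNγ 100 ng/ml together with TNFα 10 ng/ml (the combination), supernatant from a co-culture of tumor cells and T cells diluted 1/20000, 1/200 or 1/2, and no stimulation. Each of these 11 treatments had 1 library at each of 4 durations, 44 libraries in all, so a single treatment and duration has no replicate. IFNγ and TNFα are cytokines that activated T cells release. The p-values rest on the spread of all 44 libraries around fitted courses over duration, which includes any misfit of those courses. The labels do not state whether libraries came from separate cultures, so the library-to-library part of that spread may be technical alone. In bulk RNA, fewer cells of a type and less RNA per cell cannot be told apart.

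IL-1α and IL-1β, the products of IL1A and IL1B, bind the receptor IL1R1, which pairs with the accessory chain IL1RAP and recruits the adaptor MYD88 and kinases of the IRAK family, so that NF-κB and MAP kinases become active. IL-1 receptor antagonist, the product of IL1RN, occupies IL1R1 without signaling. IL-18, like IL-1β, is made as a precursor that caspase-1 cleaves, and IL-18 binding protein captures it outside the cell, whereas IL-1α and IL-33 act as alarmins that dying epithelial cells release.

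The genes lie on GRCh38 (GENCODE v29) at chr2:112773915-112784590 on the minus strand for IL1A, chr2:112829751-112836903 on the minus strand for IL1B, chr2:112973203-112985665 on the plus strand for IL36G, chr2:113107214-113134016 on the plus strand for IL1RN, chr3:10164865-10243743 on the plus strand for IRAK2, chr9:6215786-6257983 on the plus strand for IL33 and chr11:112143251-112164117 on the minus strand for IL18. IL18 overlaps AP002884.3 on the opposite strand, which held 46 counts over all libraries against 23317 for IL18. IL36G overlaps the pseudogene HMGN2P23, which was not analysed here. The strand used in counting is not given in the sources used here, so reads of these overlaps cannot be assigned with certainty.

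The 250 bases before the RefSeq start sites of the 3 genes that rose with TNFα are shown because these genes moved together. Sequences are from RefSeq on build GRCh38.p14, read 5′ to 3′ on the strand of the gene. Capitals mark matches to AP-1 (TGANTCA) or to the interferon gamma activated site GAS (TTCNNNGAA). The IL1A window, at chr2:112784494-112784743 on the minus strand, lies before the farther upstream of its start sites. The IL1B window is at chr2:112836780-112837029 on the minus strand and the IRAK2 window at chr3:10164669-10164918 on the plus strand.
IL1A: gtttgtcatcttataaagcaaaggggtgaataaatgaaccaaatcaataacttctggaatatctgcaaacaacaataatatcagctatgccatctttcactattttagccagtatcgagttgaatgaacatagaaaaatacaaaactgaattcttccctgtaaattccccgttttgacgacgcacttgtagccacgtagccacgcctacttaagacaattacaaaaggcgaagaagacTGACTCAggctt
IL1B: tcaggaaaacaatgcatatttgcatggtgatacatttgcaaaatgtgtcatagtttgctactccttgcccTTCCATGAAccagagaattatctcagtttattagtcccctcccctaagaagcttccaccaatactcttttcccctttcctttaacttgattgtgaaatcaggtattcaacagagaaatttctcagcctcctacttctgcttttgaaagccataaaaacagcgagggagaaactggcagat
IRAK2: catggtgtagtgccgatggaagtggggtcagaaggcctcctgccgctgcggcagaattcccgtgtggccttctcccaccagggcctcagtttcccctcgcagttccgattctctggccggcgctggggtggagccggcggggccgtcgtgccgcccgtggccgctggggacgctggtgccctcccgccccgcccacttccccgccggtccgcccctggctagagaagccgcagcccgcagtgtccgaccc
The IL1A window holds 1 AP-1 match, TGACTCA, 12 to 6 bases before the start. The window of the other IL1A start site, at chr2:112784401-112784650, holds 2, of which 1 is the same. The IL1B window holds the GAS match TTCCATGAA 180 to 172 bases before the start, and the IRAK2 window holds no match. The searches ran on both strands of the 250 bases before 35116 RefSeq start sites, and no overlap between motifs was counted out. AP-1 letters occurred in 6.57% of these windows, GAS letters in 6.57%, the interferon-stimulated response element (ISRE) in 3.02% and the NF-κB consensus in 9.96%. Of the other members, windows of IL1RN held an AP-1 match at 1 start site and the ISRE match GAAATAGAAA at the other 2. Those 2 windows overlap, and the ISRE match is the same site in both. Windows of IL33 and IL36G held none, and IL18 is named only. None of the members' windows held the NF-κB consensus, which says only that those letters are not in these windows. RefSeq sequences were matched for 6 of the 7 members.

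Libraries held between 9586125 and 16270128 estimated counts, and scaling factors (TMM) from 0.896 to 1.08. The numbers of the sequenced samples place the 2 h and 6 h libraries apart from the 12 h and 24 h libraries, so a possible sequencing pool and the duration cannot be told apart, and values within each pair of durations are given below. All 9 epithelial markers had over 100 counts (EPCAM 32.6 to 78.9 CPM, KRT8 717 to 1842 CPM). Of 6 ovarian carcinoma markers, 4 had over 100 counts, namely PAX8, MUC16, MSLN and FOLR1. PAX8 reached 6.24 to 18.5 CPM, WT1 at most 0.785 CPM and MUC16 at most 3.18 CPM, and SOX17 had 0 counts. The summed ovarian carcinoma list was 10.5 to 15.2 CPM in unstimulated cells. Of 14 T cell markers CD3E had 0 counts, CD3D and PTPRC 2 each over the 44 libraries, and only LCK (1202) and CD8A (238) over 100. The summed level of the T cell list was 1.1 to 3.53 CPM with supernatant 1/2 and 2.56 to 3.69 CPM in unstimulated cells. The summed epithelial list was 2207 to 3304 CPM with TNFα 10 ng/ml, 2278 to 3497 CPM with the combination and 2020 to 3177 CPM with supernatant 1/2, against 3257 to 3386 CPM in unstimulated cells. The summed list of 10 myeloid markers was 64.6 to 132 CPM with the combination and 64.2 to 129 CPM with supernatant 1/2, against 63.9 to 66 CPM in unstimulated cells. Most of it was CD68 (61.7 to 125, 59.4 to 116 and 57.5 to 62.5 CPM in the same order). In that order ITGAM was higher with treatment (0.772 to 3.72, 1.29 to 7.67 and 0.177 to 0.527 CPM), and it had 0.862 to 6.05 CPM with TNFα 10 ng/ml. CSF1R had 0.386 to 0.636, 0.0895 to 0.767 and 0.0732 to 0.175 CPM. CD14 had 0.579 to 3.29, 1.12 to 3.61 and 0.451 to 2.56 CPM. LYZ had 0.424 to 2.15, 0.986 to 1.89 and 2.03 to 3.53 CPM. SPI1 and TYROBP had 3 and 1 counts over all libraries. The part of these markers in the results below was not tested.

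TPM, which is scaled by transcript length, allows levels of different genes to be compared. In cells with TNFα 10 ng/ml, IL1A averaged 127 ± 88.1 TPM, IL1B 69.7 ± 67.2 TPM, IL18 50.6 ± 12.8 TPM and IRAK2 46.2 ± 7.76 TPM (mean ± SD over the 4 durations). In unstimulated cells IL18 was the member with the highest mean at 64.8 ± 7.76 TPM, followed by IRAK2 at 9.23 ± 1.59 TPM, IL1A at 5.9 ± 4.17 TPM and IL1B at 3.24 ± 0.937 TPM. IL1A and IL1B overlapped in range in unstimulated cells. IL1RN averaged 0.0525 ± 0.0744 TPM there.

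**Figure D1:**
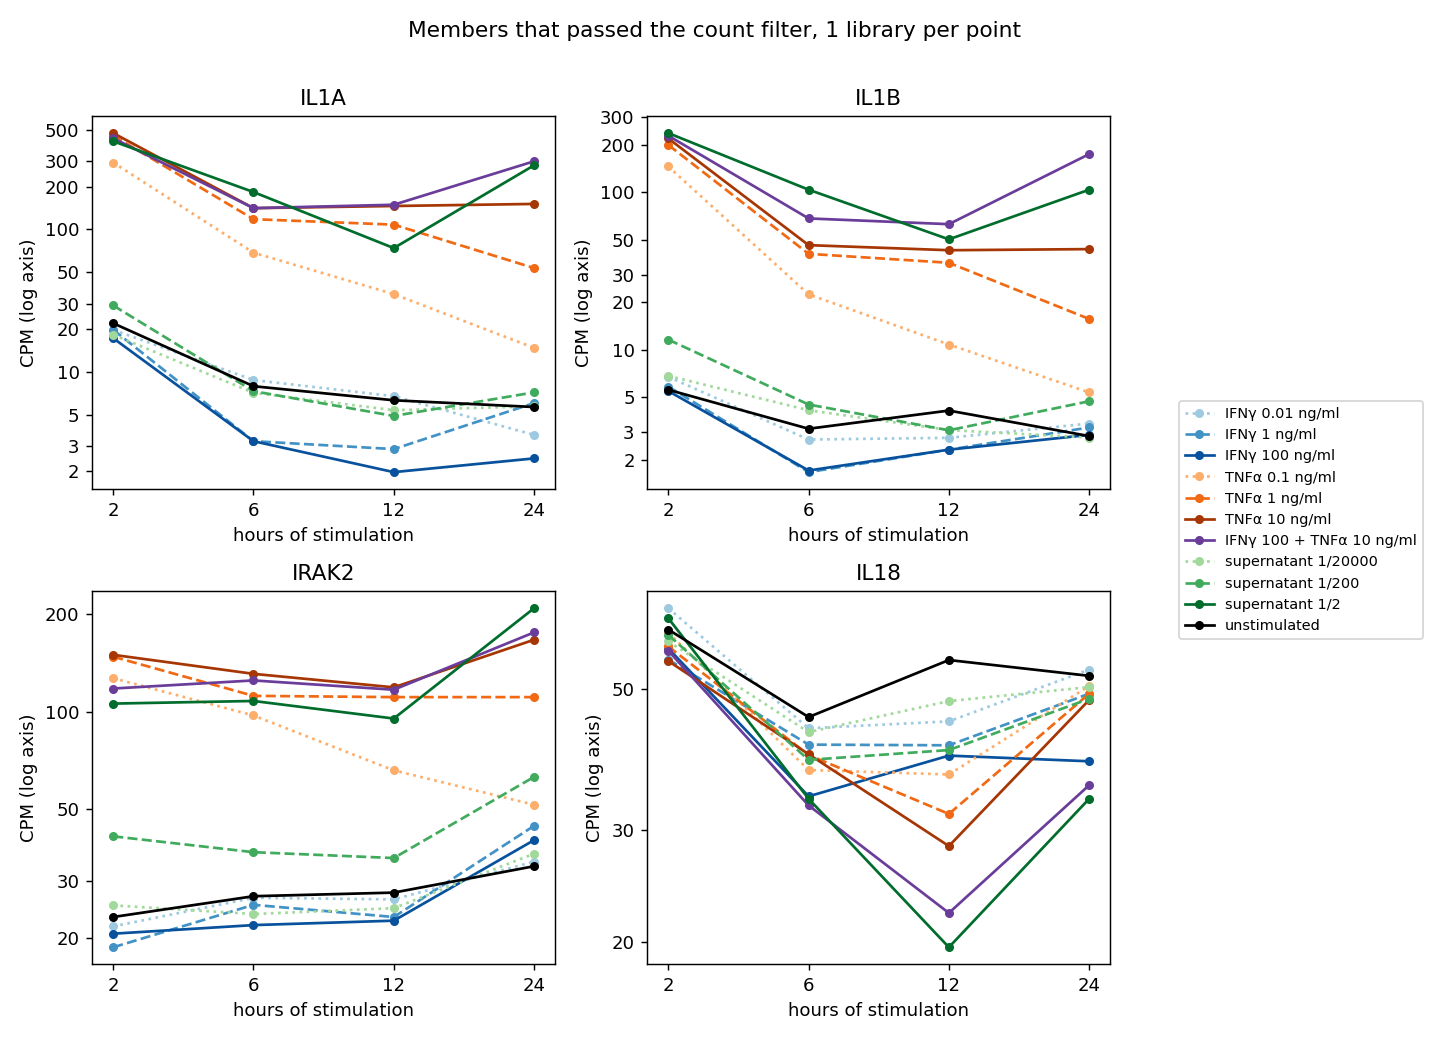
CPM (counts scaled to library size, log axis) of IL1A, IL1B, IRAK2 and IL18 against hours of stimulation (evenly spaced), with 1 library per point and a line for each of the 11 treatments. For IL1A and IL1B the TNFα-containing and supernatant 1/2 libraries lie above the others at each duration, whereas for IRAK2 at 24 h TNFα 0.1 ng/ml (51.6 CPM) is below supernatant 1/200 (62.9 CPM), and IL18 is lowest at 12 h with supernatant 1/2 (19.6 CPM).

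IL1A, which encodes the alarmin IL-1α, was highest at 2 h in every treatment, unstimulated cells included. Relative to unstimulated cells of the same duration, IL1A with TNFα 10 ng/ml was 21.7-fold at 2 h and 26.8-fold at 24 h. These ratios were 20 and 53.2 with the combination and 19 and 49.8 with supernatant 1/2. With TNFα 10 ng/ml IL1A had 475, 141, 146 and 151 CPM at 2, 6, 12 and 24 h, against 21.9, 7.91, 6.3 and 5.65 CPM in unstimulated cells. The combination gave 437, 141, 149 and 301 CPM, and supernatant 1/2 gave 416, 183, 73.9 and 282 CPM. Libraries of each of these treatments lay above all 4 unstimulated libraries, without overlap. With supernatant 1/2 the level at 24 h was 3.81 times that at 12 h, and with the combination 2.02 times, against 0.897 times in unstimulated cells.

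IL1B, which encodes the secreted cytokine IL-1β, had the same 2 h peak at a lower level. It reached 220, 46.2, 42.9 and 43.6 CPM at 2, 6, 12 and 24 h with TNFα 10 ng/ml, against 5.57, 3.15, 4.11 and 2.83 CPM in unstimulated cells. The combination gave 229, 68.3, 62.8 and 175 CPM and supernatant 1/2 gave 238, 104, 50.3 and 104 CPM. Again no treated library of these groups overlapped with an unstimulated one. IRAK2, a kinase that joins MYD88 downstream of IL-1 receptors and sustains NF-κB activity, changed less over time. Its levels were 150, 131, 119 and 167 CPM with TNFα 10 ng/ml, 118, 125, 117 and 176 CPM with the combination, 106, 108, 95.3 and 209 CPM with supernatant 1/2, and 23.2, 26.9, 27.6 and 33.3 CPM in unstimulated cells. Here too the treated and unstimulated ranges were apart. Unlike IL1A and IL1B, the highest level in each of the 3 treatments was at 24 h, but so was that of unstimulated cells. Relative to unstimulated cells of the same duration, IRAK2 with TNFα 10 ng/ml was 6.47-fold at 2 h and 5.02-fold at 24 h. These ratios were 5.09 and 5.29 with the combination and 4.57 and 6.29 with supernatant 1/2.

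IL18, which encodes a cytokine that epithelial cells make constitutively, went the other way. It had 55.4, 39.5, 28.3 and 48.1 CPM with TNFα 10 ng/ml, 57.5, 32.8, 22.2 and 35.3 CPM with the combination, 64.7, 33.6, 19.6 and 33.6 CPM with supernatant 1/2, and 62.1, 45.2, 55.6 and 52.5 CPM in unstimulated cells. The range of each of the 3 treatments overlapped with the unstimulated range: the 2 h and 24 h libraries of TNFα 10 ng/ml and the 2 h library of the combination lay inside it, and the 2 h library of supernatant 1/2 lay above it. The lowest value of each of the 3 treatments was at 12 h.

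Changes were tested with edgeR's quasi-likelihood test over all 44 libraries, in a model with duration and, for each treatment, an effect at the mean log2 duration and a slope over log2 duration. Log2 fold changes below are those effects ± SE, with 4 libraries against 4, and p-values are Benjamini-Hochberg adjusted over 14469 genes. With TNFα 10 ng/ml, IL1A rose by 4.48 ± 0.34 (22.3-fold, adjusted p = 2.29e-09), IL1B by 4.15 ± 0.30 (17.8-fold, adjusted p = 8.18e-10) and IRAK2 by 2.35 ± 0.12 (5.11-fold, adjusted p = 2.96e-13). IL18 was lower by 0.36 on this scale (log2 fold change -0.36 ± 0.13, adjusted p = 0.0409). Over all genes tested, 14.3% were called higher and 10.1% lower in this comparison, beside 3 of 4 tested members called higher and 1 lower. The members and the gene lists below were chosen with earlier results of these data known. Counts of calls among them are therefore a description and no evidence beyond that choice. Fits to the 2 h and 6 h or to the 12 h and 24 h libraries alone gave 4.33 and 4.64 for IL1A, 4.76 and 3.63 for IL1B and 2.48 and 2.22 for IRAK2, each called, whereas IL18 gave -0.18 and -0.54 with adjusted p of 0.428 and 0.0741. The IL18 call was also lost without the count filter, without slope terms, in the fit to only the libraries compared (-0.37, adjusted p = 0.171) and without any 1 of 5 libraries, namely TNFα 10 ng/ml at 2 or 12 h and unstimulated at 2, 6 or 12 h, with log2 fold changes between -0.45 and -0.24.

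The combination raised IL1A by 4.73 ± 0.34 (adjusted p = 2.06e-10), IL1B by 4.99 ± 0.29 (adjusted p = 4.3e-12) and IRAK2 by 2.26 ± 0.12 (adjusted p = 4.19e-14), and IL18 fell by 0.61 (-0.61 ± 0.13, 0.656-fold, adjusted p = 0.000386). Supernatant 1/2 gave 4.59 ± 0.34 for IL1A (adjusted p = 3.81e-10), 4.86 ± 0.29 for IL1B (adjusted p = 8.75e-12), 2.17 ± 0.12 for IRAK2 (adjusted p = 1.04e-13) and -0.62 ± 0.13 for IL18 (adjusted p = 0.000325). In both comparisons 3 of 4 tested members were called higher and 1 lower. Of all genes, 23.5% and 22.4% were called higher and lower with the combination, and 22.6% and 20.8% with supernatant 1/2. The 1 member called lower lies near the shares called lower. The fitted IL18 decrease was larger in the late pair of durations. It was -0.94 with the combination and -1.08 with supernatant 1/2 in the 12 h and 24 h libraries (both called), and -0.29 and -0.18 in the 2 h and 6 h libraries (neither called). Most of this came from 12 h. Log2 ratios of single libraries at 2, 6, 12 and 24 h were -0.11, -0.46, -1.32 and -0.57 with the combination. With supernatant 1/2 they were 0.06, -0.43, -1.50 and -0.64. The IL18 slope over duration was called with supernatant 1/2 and not with the combination. In fits to only the libraries compared, IL18 gave -0.61 with the combination and -0.62 with supernatant 1/2 and was called in neither (adjusted p of 0.0995 and 0.161). These comparisons share the unstimulated libraries.

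With IFNγ 100 ng/ml alone, IL1A had 17.2, 3.25, 1.97 and 2.46 CPM, against 21.9, 7.91, 6.3 and 5.65 CPM in unstimulated cells. It was lower at each of the 4 durations, yet the log2 fold change of -1.10 ± 0.52 did not pass the test (adjusted p = 0.18), while DESeq2 called it (adjusted p = 0.0114). IL1B gave -0.39 ± 0.46 (adjusted p = 0.659) and IRAK2 -0.12 ± 0.13 (adjusted p = 0.618). IL18 had 58, 33.9, 39.3 and 38.5 CPM with IFNγ 100 ng/ml, against 62.1, 45.2, 55.6 and 52.5 CPM in unstimulated cells, and was called lower at -0.37 ± 0.13 (adjusted p = 0.0475). Of all genes, 9.38% were called higher and 6.47% lower with IFNγ 100 ng/ml. The IL18 call is borderline: it was lost without any 1 of 6 libraries (IFNγ 100 ng/ml at 2, 6 or 24 h, unstimulated at 2, 6 or 12 h), at -0.47 to -0.25. In the test of IFNγ 100 against TNFα 10 ng/ml, 3 of 4 members were called lower, IL1A at -5.58 ± 0.38, IL1B at -4.54 ± 0.31 and IRAK2 at -2.47 ± 0.12, with 24.6% of all genes called in either direction. IL18 did not differ between these cytokines beyond its error (-0.01 ± 0.13).

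Differences between TNFα doses were larger at late times. At 2 h, IL1A had 295, 456 and 475 CPM at 0.1, 1 and 10 ng/ml, and at 24 h it had 14.7, 53.5 and 151 CPM. IL1B had 146, 200 and 220 CPM at 2 h and 5.36, 15.7 and 43.6 CPM at 24 h. IRAK2 had 127, 148 and 150 CPM at 2 h and 51.6, 111 and 167 CPM at 24 h. The ratio of 10 over 0.1 ng/ml thus grew from 2 h to 24 h for each of the 3 genes. It was 1.61, 2.06, 4.16 and 10.3 for IL1A at 2, 6, 12 and 24 h, 1.51, 2.06, 3.99 and 8.12 for IL1B, and 1.18, 1.34, 1.8 and 3.24 for IRAK2. For IL18 it stayed between 0.771 and 1.06.

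The fitted difference between TNFα 10 and 0.1 ng/ml was 1.74 ± 0.28 for IL1A (adjusted p = 0.000578), 1.64 ± 0.24 for IL1B (adjusted p = 0.000258) and 0.79 ± 0.11 for IRAK2 (adjusted p = 5.64e-05), and IL18 gave -0.12 ± 0.13. So 3 of 4 members were called, against 3.81% of all genes. Without the TNFα 0.1 ng/ml library at 2 h only 1 of the 3 was called, with IL1A at 1.40 (adjusted p = 0.123) and IL1B at 1.47 (adjusted p = 0.0508). The 2 h and 6 h libraries alone gave 0.84, 0.73 and 0.32 for IL1A, IL1B and IRAK2, none of them called, and the 12 h and 24 h libraries alone gave 2.54 and 2.39 for IL1A and IL1B with adjusted p of 0.0701 and 0.0534, while IRAK2 was called at 1.22. A comparison of the slopes of these doses was added after the values were seen. It was 0.38 ± 0.08 log2 units per doubling of duration for IRAK2 (adjusted p = 0.0425), while IL1A at 0.67 ± 0.21 (adjusted p = 0.233) and IL1B at 0.62 ± 0.17 (adjusted p = 0.169) did not pass, and 0.214% of all genes were called. The IRAK2 call was lost without any 1 of 6 libraries (each of the 4 TNFα 10 ng/ml libraries, TNFα 0.1 ng/ml at 6 or 24 h), at 0.22 to 0.42.

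Against unstimulated cells, TNFα 0.1 ng/ml raised IL1A by 2.74 ± 0.36 (adjusted p = 4.01e-05), IL1B by 2.51 ± 0.34 (adjusted p = 6.23e-05) and IRAK2 by 1.56 ± 0.12 (adjusted p = 4.9e-09), with 5.62% of all genes called. TNFα 1 ng/ml raised them by 3.95 ± 0.34, 3.67 ± 0.31 and 2.12 ± 0.12 (adjusted p of 3.18e-08, 1.55e-08 and 2.58e-12), with 18.9% of all genes called. IL18 was not called at either dose (-0.24 ± 0.12 and -0.30 ± 0.13). In the 12 h and 24 h libraries alone, none of the 3 genes was called at 0.1 ng/ml, with log2 fold changes of 2.10, 1.24 and 1.00. No member was called at the lower IFNγ doses: neither edgeR nor DESeq2 called any of the 4 at 0.01 or 1 ng/ml, and none had an unadjusted p below 0.05. Of all genes 0.0415% were called at 0.01 ng/ml and 7.53% at 1 ng/ml. The same held for IFNγ 100 against 1 ng/ml, where 0.173% of all genes were called.

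Supernatant at 1/20000 called none of the 4 members by edgeR or DESeq2, with none at an unadjusted p below 0.05 and 0.00691% of all genes called. At 1/200, IRAK2 alone was called, in a comparison with 10.8% of genes called. It had 41.2, 36.8, 35.3 and 62.9 CPM with supernatant 1/200, against 23.2, 26.9, 27.6 and 33.3 CPM in unstimulated cells. Every 1/200 library was above every unstimulated one, and the log2 fold change was 0.64 ± 0.12 (adjusted p = 0.000572). Without the 1/200 library at 2 h it was 0.49 (adjusted p = 0.0504), and it was 0.63 and 0.65, not called, in the early and late pairs of durations. IL1A had 29.2, 7.3, 4.89 and 7.16 CPM at 1/200 (log2 fold change 0.10 ± 0.44) and IL1B 11.6, 4.49, 3.08 and 4.71 CPM (0.49 ± 0.41), neither of which passed the test. Whether IRAK2 differed from IL1A and IL1B at this dilution was not tested.

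Supernatant 1/2 against 1/200 gave calls for all 4 tested members, in a comparison with 31.8% of all genes called. IL1A was higher by 4.50 ± 0.34, IL1B by 4.37 ± 0.28 and IRAK2 by 1.53 ± 0.11 (adjusted p of 1.64e-09, 7.92e-11 and 1.06e-10), and IL18 was lower (-0.41 ± 0.13, adjusted p = 0.018). The IL18 call was lost without slope terms, in the 2 h and 6 h libraries alone (-0.04), in the fit to only the libraries compared, and without the 1/2 library at 12 h or the 1/200 library at 2 or 12 h (-0.39 to -0.26). Supernatant 1/2 against the combination called no member by edgeR or DESeq2, and none at an unadjusted p below 0.05, with 8.45% of all genes called. The differences were -0.13 ± 0.25 for IL1A, -0.13 ± 0.20 for IL1B, -0.09 ± 0.10 for IRAK2 and -0.01 ± 0.13 for IL18. Intervals of 2 SE to either side ran from -0.64 to 0.37 for IL1A and from -0.54 to 0.27 for IL1B, so differences of that size are not resolved.

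IL1B was higher with the combination than with TNFα 10 ng/ml alone, mainly at 24 h. The combination over TNFα 10 ng/ml had CPM ratios of 1.04, 1.48, 1.46 and 4.01 at 2, 6, 12 and 24 h for IL1B, and 0.92, 1, 1.02 and 1.99 for IL1A. IRAK2 gave 0.787, 0.958, 0.984 and 1.05. IL18 gave 1.04, 0.829, 0.785 and 0.735. In the fit IL1B was higher by 0.84 ± 0.21 (1.79-fold, adjusted p = 0.00452), and IL1A (0.24 ± 0.25, adjusted p = 0.556), IRAK2 (-0.09 ± 0.10, adjusted p = 0.601) and IL18 (-0.25 ± 0.13, adjusted p = 0.182) were not called, with 23.8% of all genes called. The IL1B call was lost without the combination library at 2 h (0.41, adjusted p = 0.294) or at 24 h (0.42, adjusted p = 0.17), and in the 2 h and 6 h (0.27) and the 12 h and 24 h (1.41, adjusted p = 0.0602) libraries alone. The difference of slopes between the combination and TNFα 10 ng/ml, also added after the values were seen, was 0.49 ± 0.15 for IL1B (adjusted p = 0.0378), with 9.16% of all genes called. It was 0.15 without the combination library at 24 h (adjusted p = 0.705), 0.35 without TNFα 10 ng/ml at 2 h and 0.51 without TNFα 10 ng/ml at 24 h, none of them called.

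**Figure D2:**
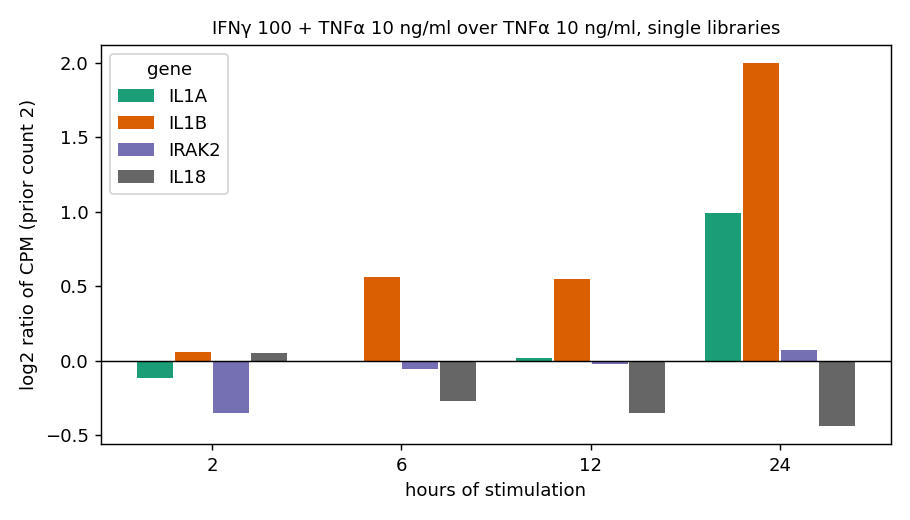
Log2 ratio of CPM (prior count 2) of the combination over TNFα 10 ng/ml by hours of stimulation for IL1A, IL1B, IRAK2 and IL18, from 1 library per treatment and duration. IL1B stands at 2.00 at 24 h, IL1A at 0.99, and IL18 falls below 0 from 6 h on (-0.27, -0.35 and -0.44).

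The interaction of the cytokines, that is the departure from additivity on the log2 scale, called none of the 4 members by edgeR or DESeq2. It was 1.34 ± 0.58 for IL1A (unadjusted p = 0.0321, adjusted p = 0.437 by edgeR) and 1.23 ± 0.50 for IL1B (unadjusted p = 0.0233, adjusted p = 0.39 by edgeR), and those 2 were the members with an unadjusted p below 0.05. IRAK2 gave 0.03 ± 0.16 and IL18 0.11 ± 0.18, and 0.525% of all genes were called. Against IFNγ 100 ng/ml alone, the combination was higher by 5.82 ± 0.38 for IL1A, 5.38 ± 0.30 for IL1B and 2.38 ± 0.12 for IRAK2, 3 of 4 members in a comparison with 29.5% of genes called.

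Slopes over duration against unstimulated cells were called for 1 member in 1 treatment. IL18 fell with supernatant 1/2 by 0.29 log2 units per doubling of duration (-0.29 ± 0.10, adjusted p = 0.0376), with 16.2% of all genes called. The call was lost without supernatant 1/2 at 2 or 12 h or unstimulated at 2 or 12 h, at -0.24 to -0.18. No member's slope was called by edgeR or DESeq2 for TNFα 10 ng/ml (2.68% of genes called), IFNγ 100 ng/ml (3.43%) or the combination (21.5%), and the only unadjusted p below 0.05 was that of IL18 with the combination (-0.20 ± 0.10). The log-linear slope does not follow a course that falls and then rises again, such as that of IL1A with supernatant 1/2.

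IL1RN, the gene of the receptor antagonist, was scarce, with 181 counts in 44 libraries, 0 in 5 of them and 55 in the highest. At 2, 6, 12 and 24 h it had 2, 3, 8 and 55 counts with the combination, 2, 2, 12 and 11 with supernatant 1/2, 0, 3, 4 and 16 with TNFα 10 ng/ml, 1, 1, 3 and 7 with IFNγ 100 ng/ml, and 1, 0, 1 and 0 in unstimulated cells. Counts were highest at 12 or 24 h in each of the 4 treatments, unlike those of IL1A and IL1B. Pooled over durations, the ratio of scaled counts to unstimulated cells was 41.1 with the combination (95% exact interval 10.9 to 346), 14.6 with supernatant 1/2 (3.67 to 127), 12.8 with TNFα 10 ng/ml (3.17 to 112) and 6.28 with IFNγ 100 ng/ml (1.4 to 57.8). These intervals cover counting error only, and the unstimulated side rests on 2 counts. Without the 24 h libraries, an alternative chosen after seeing the data, the ratios were 2.69 with IFNγ 100 ng/ml (0.44 to 28.2), 7.86 with the combination (1.78 to 71.7), 8.33 with supernatant 1/2 (1.96 to 74.7) and 4.02 with TNFα 10 ng/ml (0.765 to 39.6). Without the count filter, edgeR gave IL1RN an adjusted p of 0.000631 for the combination, 0.00218 for supernatant 1/2, 0.105 for TNFα 10 ng/ml and 0.268 for IFNγ 100 ng/ml.

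IL36G, which encodes an epithelial cytokine that acts through the IL-36 receptor, had 30 counts in all and 0 in 24 libraries. It had 4, 2, 2 and 1 counts with supernatant 1/2 and 1, 4, 1 and 0 with the combination, while all 4 unstimulated libraries were at 0. Against a floor of 3 counts over the unstimulated group, its 9 counts with supernatant 1/2 scaled to 3.24 times the floor. Its 6 counts with the combination scaled to 2.41 times the floor. This floor bounds the unstimulated side only, and the counting error of the treated counts is not included. Without the count filter its adjusted p was 0.0284 for supernatant 1/2 and 0.0763 for the combination by edgeR. IL33, the gene of an alarmin that signals through IL1RL1, had 8 counts, 1 each in 8 libraries, and 0 in 36. These lay with IFNγ 100 ng/ml, the combination, each dilution of supernatant and unstimulated cells, and no difference was detectable at this depth.

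**Figure D3:**
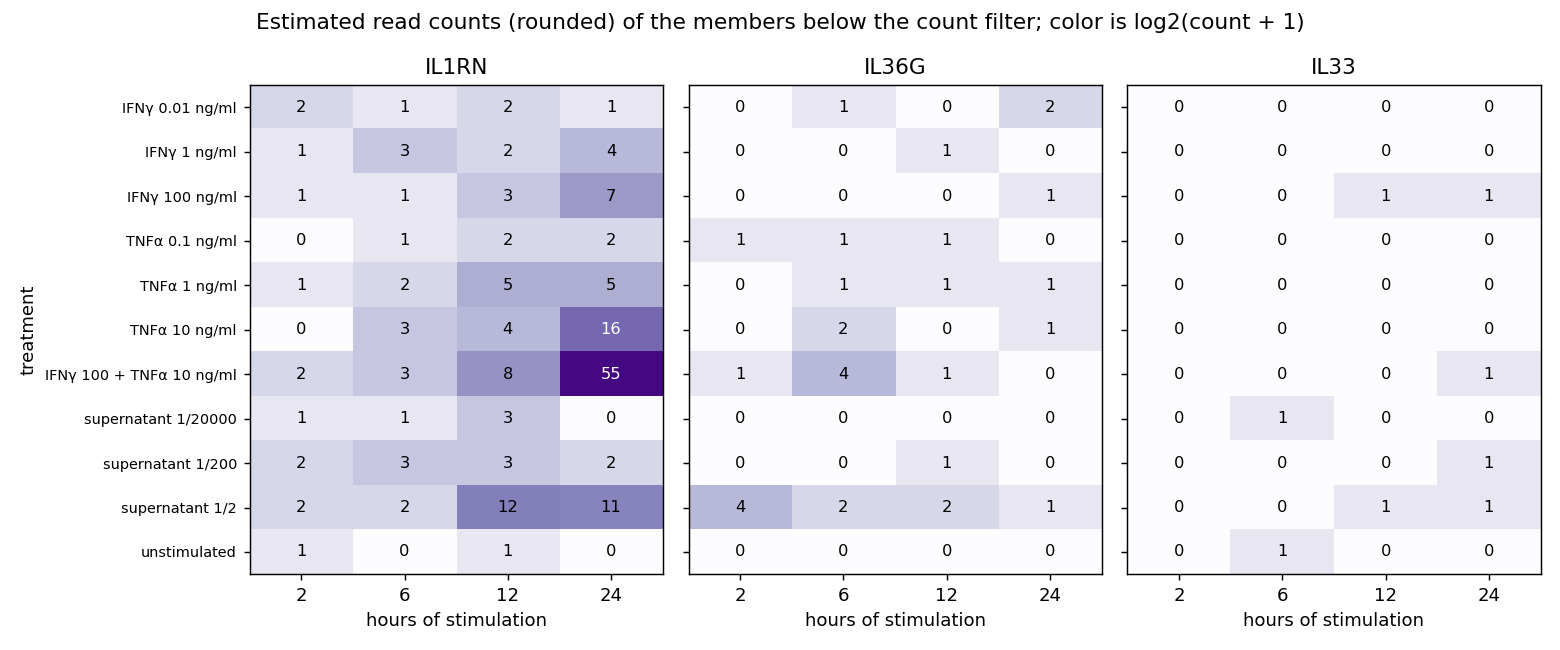
Rounded estimated counts of IL1RN, IL36G and IL33 in each library, with treatments down the page and hours of stimulation across, and color as log2(count + 1). The 55 counts of IL1RN in the combination at 24 h stand out, followed by 16 with TNFα 10 ng/ml at 24 h, and IL33 never exceeds 1.

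Other ligands of the family were scarce as well. Of the 11 ligand genes in the list 10 had counts and 3 were tested, all of them members. IL36B had 26 counts, of which 11 were in the combination at 24 h and 6 in TNFα 10 ng/ml at 24 h, with 0 in unstimulated cells. IL37, an inhibitory relative, had 146 counts and at most 11 in a library. IL36A and IL36RN had 2 counts each, and IL1F10 had 0.

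Of 11 receptor and decoy genes 5 were tested. IL18BP, the secreted decoy of IL-18, had 11.2, 81.3, 180 and 288 CPM at 2, 6, 12 and 24 h with IFNγ 100 ng/ml, 14.5, 113, 272 and 490 CPM with the combination, 9.3, 81.9, 235 and 403 CPM with supernatant 1/2, and 5.79, 6.23, 7.09 and 8.83 CPM in unstimulated cells. TNFα 10 ng/ml left it at 6.38, 6.45, 5.89 and 6.51 CPM. IL18BP rose by 3.62 ± 0.23 with IFNγ 100 ng/ml (adjusted p = 9.28e-11), 4.16 ± 0.23 with the combination (adjusted p = 1.78e-12) and 3.77 ± 0.24 with supernatant 1/2 (adjusted p = 1.44e-11), against -0.13 ± 0.31 with TNFα 10 ng/ml (adjusted p = 0.815). At 24 h with the combination, IL18BP stood at 55.4 times the unstimulated level, in the same library in which IL18 had 35.3 CPM against 52.5 CPM in unstimulated cells.

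IL18R1, the ligand-binding chain of the IL-18 receptor, had 6.46, 26.8, 42.9 and 43.5 CPM with the combination, 4.27, 8.37, 20.6 and 24.9 CPM with IFNγ 100 ng/ml, 5.78, 15, 13.1 and 15.2 CPM with TNFα 10 ng/ml, and 4.21, 2.49, 3.06 and 5.12 CPM in unstimulated cells. Both cytokines raised it, by 1.64 ± 0.28 for IFNγ 100 ng/ml (adjusted p = 0.00012) and 1.64 ± 0.27 for TNFα 10 ng/ml (adjusted p = 6.95e-05), and the combination by 2.72 ± 0.26 (adjusted p = 7.33e-09). Its interaction term was -0.57 ± 0.36 and was not called. Its partner chain IL18RAP had 66 counts in all libraries, at most 10 in 1, and was not tested.

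**Figure D4:**
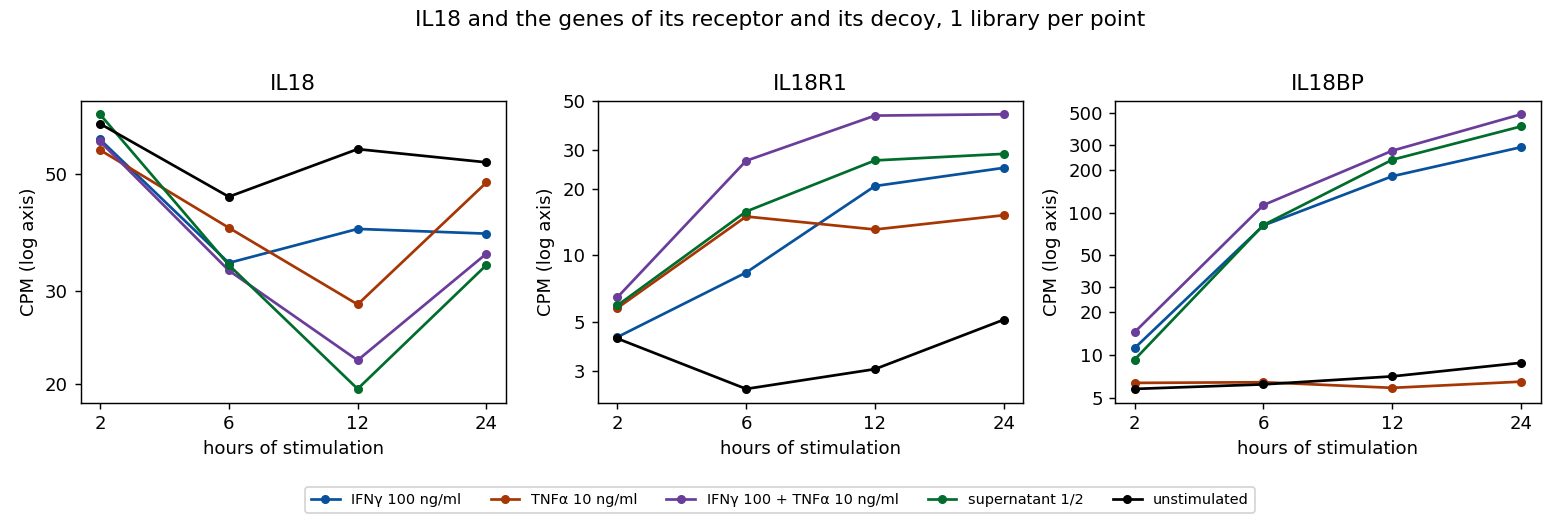
CPM (log axis) of IL18, its receptor gene IL18R1 and its decoy gene IL18BP against hours of stimulation (evenly spaced), 1 library per point, for IFNγ 100 ng/ml, TNFα 10 ng/ml, the combination, supernatant 1/2 and unstimulated cells. IL18BP climbs to 490 CPM with the combination and stays between 5.89 and 6.51 CPM with TNFα alone, while IL18 dips to 22.2 CPM with the combination at 12 h.

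IL1R1, the signaling receptor of IL-1, was called higher with the combination (0.61 ± 0.15, adjusted p = 0.00136) and not with supernatant 1/2 (0.24 ± 0.15, adjusted p = 0.215), TNFα 10 ng/ml (0.21 ± 0.15) or IFNγ 100 ng/ml (-0.07 ± 0.16). IL1RAP, its accessory chain, rose with each of these, by 0.33 ± 0.07 for TNFα 10 ng/ml, 0.20 ± 0.07 for IFNγ 100 ng/ml, 0.27 ± 0.07 for the combination and 0.34 ± 0.07 for supernatant 1/2. SIGIRR, an inhibitory receptor, lay between -0.03 and 0.00 in these 4 comparisons and was not called. The decoy receptor IL1R2 had 192 counts and the IL-33 receptor IL1RL1 had 53, and neither was tested.

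Among 17 genes of Myddosome and TRAF6 signaling, all tested, IRAK2 had the highest log2 fold change with TNFα 10 ng/ml, the combination and supernatant 1/2. With TNFα 10 ng/ml 5 of the 17 were higher and 1 lower, with the combination 6 and 1, with supernatant 1/2 8 and 1, and with IFNγ 100 ng/ml 2 and 1. The shares of all genes called higher and lower were 14.3% and 10.1%, 23.5% and 22.4%, 22.6% and 20.8%, and 9.38% and 6.47% in the same order, and the counts for IFNγ 100 ng/ml lie near that background. List medians were 0.10, 0.11, 0.13 and 0.00, and medians over all genes lay within 0.02 of 0. Of the other kinases, IRAK1 gave 0.09 ± 0.05 and IRAK4 -0.22 ± 0.09 with TNFα 10 ng/ml, neither called, and IRAK3, which restrains the pathway, was called with supernatant 1/2 (0.96 ± 0.28, adjusted p = 0.00671) and not with TNFα 10 ng/ml (0.67 ± 0.29, adjusted p = 0.0903) or the combination (0.65 ± 0.30, adjusted p = 0.0777).

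MYD88, the adaptor, differed from IRAK2 in which cytokine moved it. It had 40.2, 77.6, 86.8 and 86.6 CPM with IFNγ 100 ng/ml, 34.5, 43.9, 43.6 and 45.5 CPM with TNFα 10 ng/ml, and 38.6, 39.5, 35.9 and 37.1 CPM in unstimulated cells. It rose by 0.89 ± 0.10 with IFNγ 100 ng/ml (adjusted p = 1.75e-07) and 1.17 ± 0.10 with the combination (adjusted p = 3.3e-10), against 0.14 ± 0.10 with TNFα 10 ng/ml (adjusted p = 0.361). PELI2, a ubiquitin ligase of the pathway, had the lowest log2 fold change in these 4 comparisons and fell in each, with -1.29 ± 0.22 for TNFα 10 ng/ml.

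Genes of cytokine processing and release were called higher with IFNγ and with TNFα. Of 15 tested genes in a list of 18, 6 were higher and 0 lower with IFNγ 100 ng/ml, 8 and 0 with TNFα 10 ng/ml, 13 and 1 with the combination, and 12 and 0 with supernatant 1/2. The share of all genes called higher was 9.38%, 14.3%, 23.5% and 22.6% in the same order, and the share called lower 6.47%, 10.1%, 22.4% and 20.8%. List medians were 0.96, 0.53, 1.74 and 1.57, and with AIM2, which had 0 counts in unstimulated cells, at its bound the second was 0.41. CASP1, the protease that matures IL-1β and IL-18, had 0.769, 7.56, 18.5 and 48 CPM with IFNγ 100 ng/ml, 0.0862, 1.12, 0.785 and 3.16 CPM with TNFα 10 ng/ml, 0.482, 7.9, 27.5 and 77.8 CPM with the combination, and 0.376, 0.293, 0.263 and 1.59 CPM in unstimulated cells. CASP1 rose by 4.08 ± 0.34 with IFNγ 100 ng/ml (adjusted p = 6.63e-10) and by 4.32 ± 0.35 with the combination (adjusted p = 6.77e-11), and gave 0.69 ± 0.54 with TNFα 10 ng/ml (adjusted p = 0.392).

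At 24 h, IL1B and CASP1 were both high with the combination and with supernatant 1/2: 175 CPM of IL1B and 77.8 CPM of CASP1 with the combination, and 104 and 62.2 CPM with supernatant 1/2, against 2.83 and 1.59 CPM in unstimulated cells. IL1B was highest at 2 h in these treatments (229 and 238 CPM). At that time CASP1 had 0.482 and 0.775 CPM, against 0.376 CPM in unstimulated cells. GSDMD, whose cleaved product forms the membrane pore through which IL-1β leaves, rose by 1.32 ± 0.12 with IFNγ 100 ng/ml (adjusted p = 5.21e-09), 0.68 ± 0.12 with TNFα 10 ng/ml (adjusted p = 0.000155) and 1.87 ± 0.12 with the combination (adjusted p = 1.64e-12). RNA levels do not show whether the proteins were cleaved or released. MEFV, an inflammasome sensor gene, was highest in the list with the combination and had 2.41, 8.44, 17.4 and 44.1 CPM there, against 0.0752, 0, 0.175 and 0 CPM in unstimulated cells. AIM2, a sensor of DNA in the cytosol, had 0, 3, 11 and 9 counts with IFNγ 100 ng/ml, 0, 3, 15 and 33 with the combination, 0, 4, 9 and 22 with supernatant 1/2, and 0 in all unstimulated libraries. CARD8, an inflammasome sensor, was the 1 gene called lower with the combination (-0.23 ± 0.07, adjusted p = 0.011) and was lowest also with TNFα 10 ng/ml (-0.17 ± 0.07) and supernatant 1/2 (-0.15 ± 0.07), where it was not called. NLRP1, another sensor, was lowest with IFNγ 100 ng/ml (-0.29 ± 0.21, not called).

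**Figure D5:**
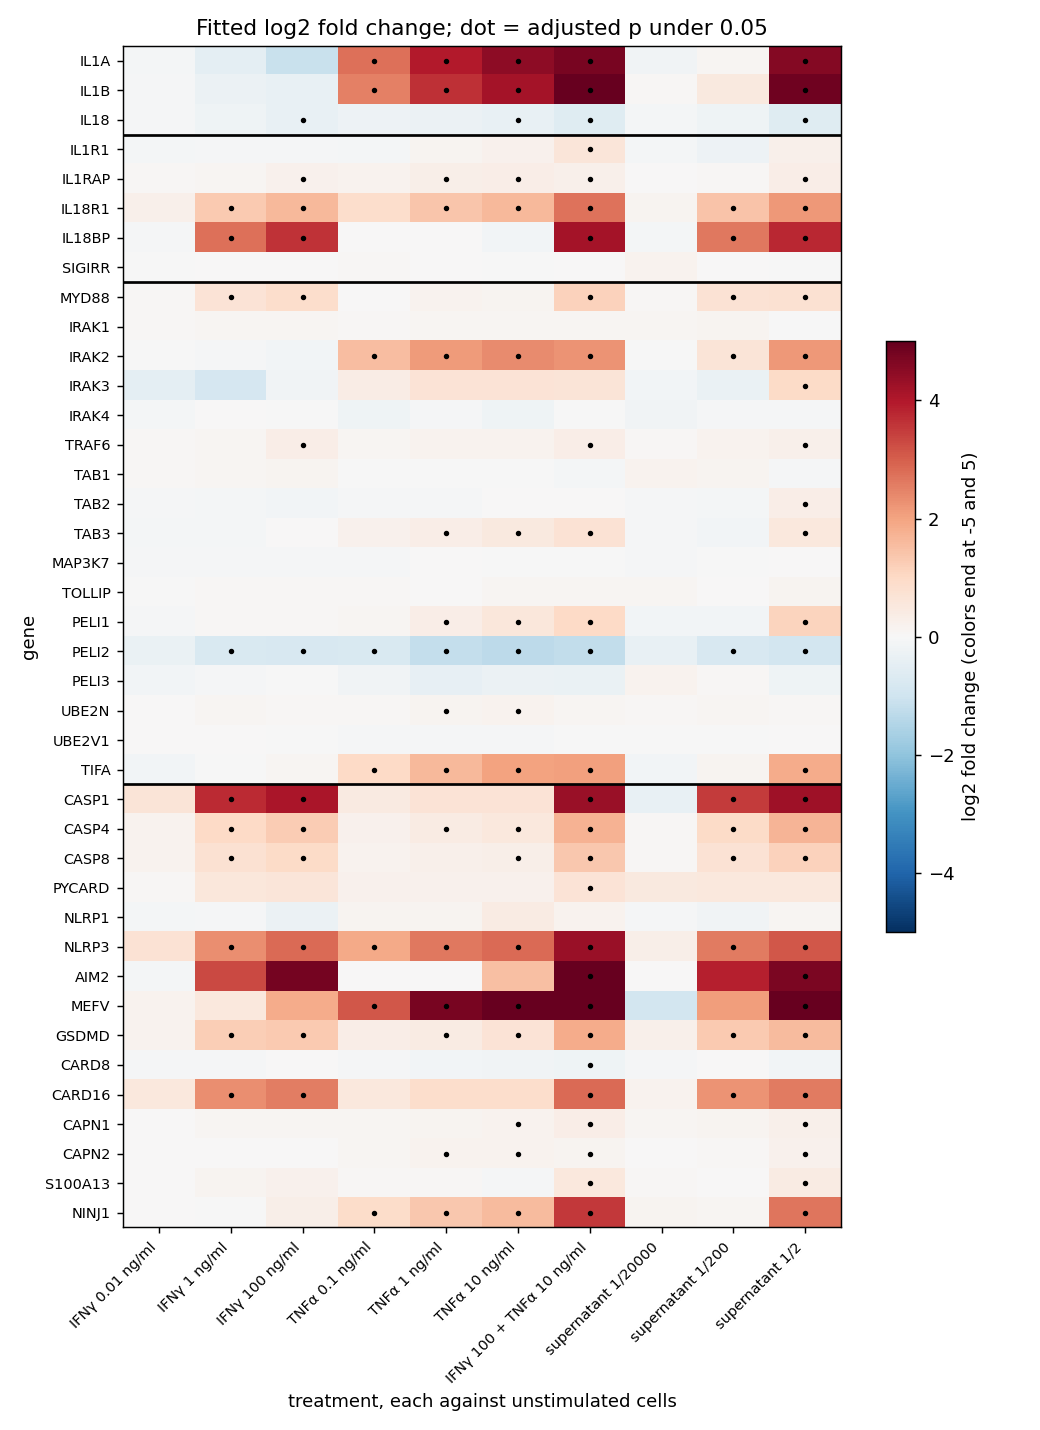
Fitted log2 fold change against unstimulated cells for the tested ligands, receptors and decoys, signaling genes and processing genes (rows, from top, separated by lines) in the 10 treatments (columns), with a dot where the adjusted p was below 0.05 and colors ending at -5 and 5. IL1A, IL1B and IRAK2 have dots in the TNFα, combination and supernatant 1/2 columns, and IRAK2 also in that of supernatant 1/200, whereas IL18BP, MYD88 and CASP1 have dots in those with IFNγ at 1 or 100 ng/ml, the combination and supernatant 1/200 and 1/2.

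Among 18 IL-1 and NF-κB target genes, all tested, 18 were higher with TNFα 10 ng/ml, the combination and supernatant 1/2, and 4 with IFNγ 100 ng/ml, with list medians of 4.47, 5.53, 5.17 and 0.52. Of all genes 14.3%, 23.5%, 22.6% and 9.38% were called higher in the same order. With CSF3, which had 0 counts in unstimulated cells, at its bound the medians were 4.12, 5.53, 5.17 and 0.49. IL-1 and TNFα share these targets, so the list does not separate them. CXCL8, a neutrophil chemokine, had the highest log2 fold change with TNFα 10 ng/ml (6.52 ± 0.45, adjusted p = 8.23e-10), and LCN2, an iron-binding protein of innate defense, the lowest (0.41 ± 0.10, adjusted p = 0.00266). CSF3, the gene of a granulocyte growth factor, had 5, 1, 10 and 203 counts with the combination and 74, 83, 269 and 498 with supernatant 1/2. With IFNγ 100 ng/ml CXCL8 gave -0.56 ± 0.76 and ICAM1, a leukocyte adhesion receptor, was highest at 3.33 ± 0.29 (adjusted p = 2.19e-08).

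Genes with the most similar profile to each tested member were taken over the 44 libraries from 13167 genes by Pearson's r of log2 CPM, as a description. Libraries share treatments and durations, so r mostly reflects the groups. IL1A was closest to IL1B (0.978), CXCL8 (0.973) and ZC3H12C (0.952), and IL1B to IL1A, CXCL8 (0.973) and CXCL1 (0.966). IRAK2 was closest to MIR3142HG (0.954), IFNGR2 (0.951) and SLC2A6 (0.948). IL18 was closest to CYTH3 (0.923), PSD3 (0.915) and GPRC5A (0.893). Between members, r was 0.88 for IL1A with IRAK2, 0.89 for IL1B with IRAK2, and -0.10, -0.13 and -0.32 for IL18 with IL1A, IL1B and IRAK2.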

How the data were processed

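Stranded mRNA libraries (RNA integrity number above 8) were sequenced on a HiSeq instrument, per the labels' protocols. The authors deposited 1 table per library with the expected counts, TPM and effective length of each gene. Salmon made these values, per the file headers and the submitters' processing notes, which also name STAR, UMI-tools, DESeq2 and GRCh38 without roles or versions. The strand setting was not given in the sources used here.

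Expected counts were rounded to whole numbers (18.58% to 20.57% of genes per library were fractional). Genes were kept with filterByExpr by treatment (minimum count 10, minimum total 15), and libraries scaled by TMM. The model combined duration and treatment as factors with a treatment-specific slope on centered log2 duration (24 coefficients, 20 residual degrees of freedom), tested by quasi-likelihood in edgeR 4.0.16 with robust dispersion (limma 3.58.1, R 4.3.3) with Benjamini-Hochberg adjustment at 0.05. Effects are fitted values at the mean log2 duration, not means of single ratios, and the SE was derived from the F statistic. CPM is the rounded count over the TMM-scaled library size, and the authors' expected counts were not otherwise altered. Single-library log2 ratios used a prior count of 2. TPM, made by the authors, was used only to compare levels between genes. The script was run on simulated counts without effects of duration, in which some genes were changed by fixed folds with TNFα 10 ng/ml. That run does not show how the model handles courses that change over time. Intervals are exact binomial (SciPy 1.17.1).

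The 7 members and the gene lists were chosen with earlier results of these data known. Named were all members, family ligands and receptors, MYD88, IRAK1, IRAK3, IRAK4, CASP1 and GSDMD, the genes at either end of each other list, and the 3 genes most like each tested member; IL18RAP, IL1R2 and IL1RL1 fall under receptors. Alternatives were RLE size factors, DESeq2 1.42.0, no count filter, no slope terms, early or late durations alone, only the libraries compared and leaving out each library. Identifiers were matched to symbols for 33113 of 33538 genes from a name table and 343 from GENCODE v29.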

Additional observations from a re-analysis of the deposited data

Results flagged for a closer look

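The course over time of 3 members differed between treatments by a test of the slopes. IL18 had a slope of -0.29 log2 units per doubling of duration with supernatant 1/2 against unstimulated cells. The slope of IL1B with the combination minus that with TNFα 10 ng/ml was 0.49, and the slope of IRAK2 with TNFα 10 ng/ml minus that with TNFα 0.1 ng/ml was 0.38, both from comparisons added after the values were seen. Each call was lost without single libraries that are named with the results above. No group had 4 replicates, so outlying replicates could not be looked for.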

How the results depend on the processing

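Over the 96 results for single tested members, 1296 of 1376 alternative values stayed on their side of the threshold, 77 fell short of it and 3 newly passed it. Only called results could fall short, and results that were not called are part of the same total, so the share of calls lost is larger than these counts show. No called value changed sign, whereas values that were not called could, such as IL1A with supernatant 1/200 (0.10, against -0.01 at 12 and 24 h alone). The number of members called (of 4) changed as follows, and the cause was not tested. Through IL18 alone it was 3 in place of 4 with TNFα 10 ng/ml (without the count filter, without slope terms, in either pair of durations, with only the libraries compared and without any of 5 libraries), with the combination and with supernatant 1/2 (at 2 and 6 h alone and with only the libraries compared), and for supernatant 1/2 against 1/200 (without slope terms, at 2 and 6 h alone, with only the libraries compared and without any of 3 libraries). With IFNγ 100 ng/ml, 1 was called, against 2 by DESeq2, 0 without the count filter, without slope terms, at 2 and 6 h alone, at 12 and 24 h alone or with only the libraries compared, and 0 to 1 leaving out 1 library. With TNFα 0.1 ng/ml, 3 were called and 0 at 12 and 24 h alone or with only the libraries compared. With supernatant 1/200, 1 was called and 0 without slope terms or in either pair of durations, and 0 to 1 leaving out 1 library. For the combination against TNFα 10 ng/ml, 1 was called and 0 without slope terms, in either pair of durations or with only the libraries compared, and 0 to 1 leaving out 1 library. For TNFα 10 against 0.1 ng/ml, 3 were called, 0 without slope terms, at 2 and 6 h alone or with only the libraries compared, 1 at 12 and 24 h alone, and 1 to 3 leaving out 1 library. For slopes, the combination had 0 called and 0 to 1 leaving out 1 library (1 without unstimulated at 24 h). Supernatant 1/2 had 1 called, 0 without the count filter and 0 to 1 leaving out 1 library. The combination minus TNFα 10 ng/ml had 1 called, 0 by DESeq2 or without the count filter and 0 to 1 leaving out 1 library. TNFα 10 minus 0.1 ng/ml had 1 called, 0 without the count filter and 0 to 1 leaving out 1 library. Treated and unstimulated libraries were matched by duration, which was a factor in the fits with and without slope terms. Beyond that, no pairing by replicate number exists, since each treatment and duration has 1 library. With 1 library each, single durations carry no test, and IL1RN, IL36G and IL33 are limited by counting.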
